A study of Mus musculus with 4 samples.

Results

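The 33 genes described here carry glucose into the cell, break it down, export the lactate that results, and answer to low oxygen. They were taken by symbol from the deposited count matrix, which holds 30905 genes, and all 33 were found. They comprise 2 glucose transporters (Slc2a1 and Slc2a3), 14 glycolytic enzymes, 4 genes of pathway control and lactate exit (Pfkfb3, Pfkfb4, Pdk1 and Slc16a3), 4 genes of the HIF factors and their oxygen sensors (Hif1a, Epas1, Egln1 and Egln3), and 10 hypoxia-induced genes, among which Egln3 is counted again. The first 20 are called glycolytic genes below.

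Genetically modified mice gave the prostates, which were digested with collagenase and TrypLE. Single cells were then sequenced in droplets, using version 3 of the 10x Chromium 3' chemistry. There were 4 groups with 1 library each: Trp53-intact mice without ADT (4 months old), Trp53-intact mice with ADT (5.5 months), Trp53-deleted mice without ADT (3.5 months) and Trp53-deleted mice with ADT (5.5 months). The labels mark the deletion Trp53PC-/-, read here as limited to the prostate, and ADT, which they do not spell out, is read as androgen deprivation therapy. The driver of the deletion and the number of mice per library are not given in the sources used here. The rest of the genotype, shared by all groups, is not reported. Values for the libraries follow the order just given, both intact libraries first and each genotype without ADT before that with it. With 1 library per group there is no test and no p-value, and the effect of ADT cannot be told apart from that of age or library. Genotype likewise cannot be told apart from library, and without ADT it cannot be told apart from age (4 against 3.5 months).

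Glycolysis turns glucose into pyruvate, and lactate dehydrogenase turns pyruvate into lactate when cells ferment it. Hypoxia-inducible factors (HIF) are made of an oxygen-labile alpha subunit, encoded by Hif1a or Epas1, and a stable partner. Prolyl hydroxylases of the Egln family mark the alpha subunit for destruction when oxygen is present, and when oxygen is scarce the factor raises transport, glycolytic and adaptation genes through the core motif ACGTG or GCGTG. Immune cells such as neutrophils rely heavily on glycolysis.

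The libraries held 9401, 8524, 7806 and 10595 barcodes, of which 6506, 6147, 4892 and 7825 cells were kept, with median depths of 7091, 4775, 4969 and 7109 unique molecular identifiers (UMIs). Clustering without the 33 genes gave 34 clusters, which marker genes placed in 17 classes, while 8 clusters with 16.89% of the cells stayed unnamed. Names end in "-like" because they rest on RNA alone. Trp53 in luminal progenitor-like cells was at 57.2, 89.99, 17 and 18.5 CPM (UMIs of the gene per 1000000 UMIs of its class and library), and in fibroblast-like cells at 45.1, 69.6, 46.8 and 45.3 CPM, so without ADT it was lower in the library labelled Trp53-deleted in the epithelial class and not in the stromal one. No source used here names the deleted exons, and 3' reads that lie outside them would not check the deletion. In basal-like cells it was at 98.8, 116 and 30.3 CPM in the 3 libraries with enough cells. Among kept cells, 81 barcode sequences occurred in more than 1 library. The cluster led by Pbsn and Msmb had no UMI of either gene in the ADT libraries (Pbsn at 3060, 0, 258 and 0 CPM), so its luminal name is not supported there and it was left out of the group comparisons. The summed level of 6 genes that lead an unnamed cluster of the Trp53-deleted ADT library (cluster 8, led by Crabp1 and Ptn; the genes were chosen after the clusters were seen) was 612 CPM in neutrophil-like cells of that library against 5.3 to 11.6 CPM in the other libraries, and 366 against 2.5 to 12.6 CPM in T-like cells. The share of such free RNA in the results of that library was not tested. The level in cluster 8 is given beside some of these results only, and those without it may be touched as well.

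More of these genes were highest in neutrophil-like cells than in any other named class. Of the 33 genes, 11 were highest in neutrophil-like cells in at least 3 of the 4 libraries, 7 of them glycolytic (Slc2a1, Slc2a3, Pgam1, Eno1, Pkm, Pfkfb4 and Slc16a3) and 4 hypoxia-induced (Egln3, Bnip3, Ankrd37 and Kdm3a). Another 4 were highest in luminal progenitor-like cells (Aldoc, Tpi1, Pgk1 and Higd1a). Pfkp was highest in dendritic-like, Pdk1 in T-like and Epas1 in endothelial-like cells, and 15 genes had no class that led in 3 libraries. Between 12 and 15 named classes with at least 50 cells were ranked in each library. Unnamed clusters were left out of this order and of the class ranges given below. One of them, led by Crabp1 and Ptn, lay in the Trp53-deleted ADT library. There it stood above the leading class for Pgam1, Pgk1, Gapdh and P4ha2, and below it for Pkm and Tpi1. By the same rule, 6.37% of all 14367 genes with at least 20 UMIs over the classes of each library were highest in neutrophil-like cells. That share was not counted for the other classes, so the 4 genes of luminal progenitor-like cells have no background beside them. The classes come from clustered cells, so these orders are a description.

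**Figure D1:**
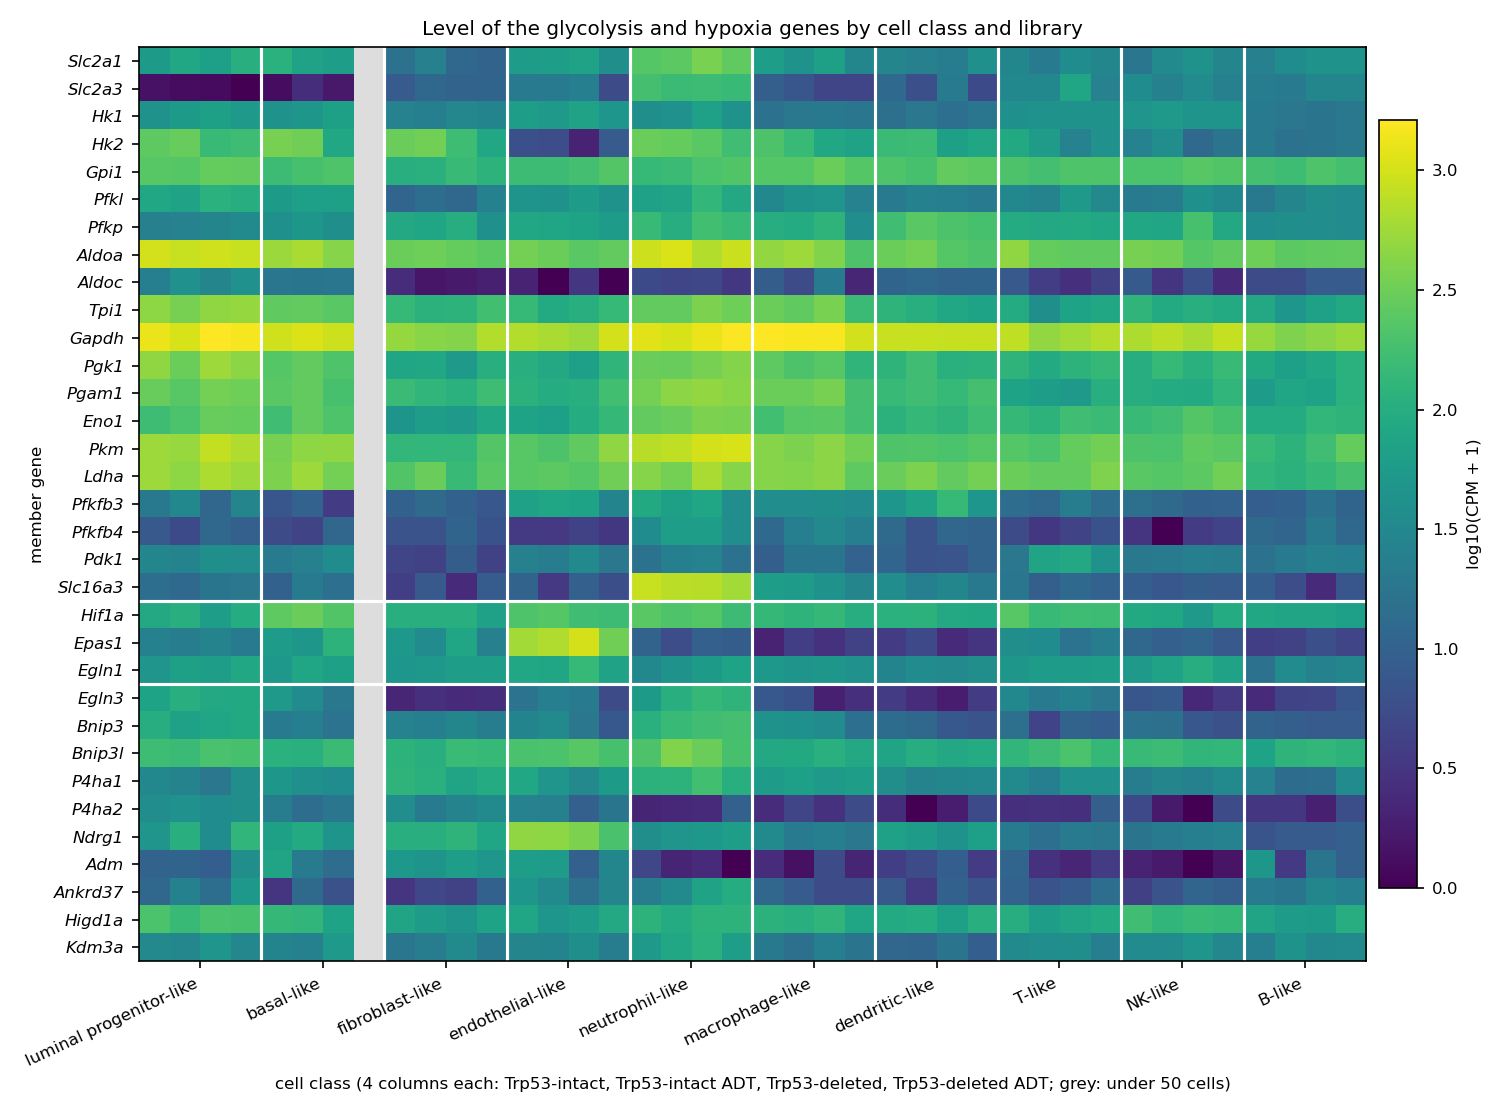
Level of each of the 33 genes, as the colour of log10(CPM + 1), in 10 cell classes; each class has a column per library in the order of the text, and grey marks under 50 cells. Slc16a3 is brightest in neutrophil-like cells and Epas1 in endothelial-like cells, and Slc2a3 is near 0 in luminal progenitor-like cells.

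Slc16a3, which encodes the lactate exporter MCT4, separated neutrophil-like cells from every other class most widely. Its level there was 879, 758, 734 and 574 CPM. The next class was monocyte-like in the first 3 libraries, at 130, 208 and 67.9 CPM, and macrophage-like in the last, at 28.2 CPM. The neutrophil-like level was thus 6.75, 3.64, 10.8 and 20.3 times the next one. The Trp53-deleted ADT library held only 20 monocyte-like cells, too few for that class to be ranked there. The value of 20.3 is therefore not comparable with those of the first 3 libraries. In luminal progenitor-like cells Slc16a3 lay between 11.5 and 18.0 CPM in all 4 libraries.

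Slc2a1 and Slc2a3 encode the glucose transporters GLUT1 and GLUT3. Slc2a1 in neutrophil-like cells was at 232, 254, 364 and 267 CPM, which was 2.09, 3.14, 5.19 and 2.54 times the next class. Slc2a3 there was at 182, 151, 159 and 148 CPM, or 2.26, 1.81, 2.12 and 5.21 times the next class. The transporter used differed by class. In luminal progenitor-like cells Slc2a3 gave 8, 3, 3 and 0 UMIs (0.439, 0.287, 0.257 and 0 CPM, where 3 counts would be 0.782 CPM in the last library), while Slc2a1 was at 54.9, 80.8, 62.9 and 105 CPM. Of the UMIs of both transporter genes, Slc2a3 made up 44.0% (95% Clopper-Pearson interval 41.0 to 47.0), 37.3%, 30.5% and 35.7% in neutrophil-like cells, 77.9% (67.7 to 86.1), 76.9% and 52.9% in smooth muscle and pericyte-like cells of the 3 libraries with enough cells, and 0.794% or less in luminal progenitor-like cells.

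The promoters of these transporters are shown because both genes led in the same class. Sequences are the 250 bases before the RefSeq start on GRCm38.p6, printed 5' to 3' on the gene's strand. Capitals mark the letters ACGTG or their complement CACGT, the HIF core with A in the first place. Slc16a3 lies on chr11:120948480-120960868, plus strand, and its window is chr11:120948817-120949066, with matches starting 27 and 14 bases before the start. This window lies inside the annotated gene, so its RefSeq start is not the annotated 5' end. Slc2a1 lies on chr4:119108711-119137983, plus strand, and its window is chr4:119108495-119108744, with 1 match 36 bases before the start.
Slc16a3: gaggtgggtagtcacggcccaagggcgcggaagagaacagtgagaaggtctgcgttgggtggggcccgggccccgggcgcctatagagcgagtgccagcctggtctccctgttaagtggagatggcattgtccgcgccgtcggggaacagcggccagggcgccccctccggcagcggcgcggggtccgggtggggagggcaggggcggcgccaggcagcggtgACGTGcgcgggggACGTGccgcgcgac
Slc2a1: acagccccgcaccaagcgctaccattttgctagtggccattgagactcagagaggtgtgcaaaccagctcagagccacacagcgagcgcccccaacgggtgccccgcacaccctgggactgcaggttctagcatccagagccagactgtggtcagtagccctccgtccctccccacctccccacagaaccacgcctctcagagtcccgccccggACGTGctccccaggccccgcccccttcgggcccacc

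RefSeq windows were found for 29 of the 33 genes, 41 windows in all, and none was used for Slc2a3, Ndrg1, Bnip3l and Epas1. ACGTG on either strand occurred in a window of 16 of the 29 genes (55.17%) and of 4998 of 27025 genes in the whole table (18.49%). By window, ACGTG was found in 43.9% of the windows of the 29 genes and 16.57% of all windows, and GCGTG in 56.1% and 28.16%. Adm had no ACGTG and 2 matches of GCGTG, and 1 Ldha window had 5 of ACGTG, where the palindrome CACGTG counts on both strands. Every promoter printed here holds ACGTG, so the printed ones do not stand for the rest. Of the other genes that led in neutrophil-like cells, Eno1, Pfkfb4 and Kdm3a had no ACGTG in any window. Pgam1, Pkm, Egln3, Bnip3 and Ankrd37 had a match. A match of these letters is a description of sequence, not a bound site.

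The 14 enzymes formed a graded order of classes, without a class that stood 2-fold above the next in most libraries. In luminal progenitor-like cells Aldoa (aldolase A) was at 981, 868, 942 and 865 CPM, against 934, 1051, 693 and 903 CPM in neutrophil-like cells, so the order of these classes changed with the library. Over all classes and libraries Aldoa ran from 135 to 1051 CPM. Gapdh (glyceraldehyde-3-phosphate dehydrogenase) ran from 331 CPM in Schwann-like to 1618 CPM in luminal progenitor-like cells, and in 2 libraries was highest in macrophage-like cells, at 1615 and 1494 CPM. Pgk1 (phosphoglycerate kinase) led in luminal progenitor-like cells in all 4 libraries, at 475, 311, 546 and 443 CPM, and was lowest at 53.8 CPM in fibroblast-like cells. Tpi1 (triosephosphate isomerase) ran from 39.1 CPM in T-like to 500 CPM in luminal progenitor-like cells.

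The last steps of the pathway led in neutrophil-like cells. There Pgam1 (phosphoglycerate mutase) was at 342, 449, 488 and 433 CPM, Eno1 (enolase) at 273, 302, 373 and 367 CPM, and Pkm (pyruvate kinase) at 730, 803, 1005 and 1021 CPM. These levels were 1.08 to 1.55 times those of the next class, so the lead was small. Their lowest values in any ranked class were 49.0, 23.3 and 75.5 CPM. Ldha (lactate dehydrogenase A) had no constant leader and ran from 65.3 CPM in plasma-like to 647 CPM in luminal progenitor-like cells.

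Of the first steps, Gpi1 (glucose-6-phosphate isomerase) ran from 46.9 to 377 CPM, Pfkl and Pfkp (phosphofructokinase, liver and platelet types) from 7.66 to 131 and from 12.8 to 242 CPM, Hk1 from 6.58 to 70.0 CPM, Hk2 from 1.09 to 359 CPM, and Aldoc (aldolase C) from 0 to 69.9 CPM. Reads of Gapdh, Eno1, Ldha, Pgam1, Tpi1, Aldoa and Pkm may be shared with near-identical pseudogene copies, and the treatment of such reads is not known from the sources used here, so their absolute levels are uncertain.

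Isoform pairs divided the classes sharply. Hk1 and Hk2 encode hexokinases, which trap glucose in the cell. Hk2 made up 7.81% (3.81 to 13.9), 8.33%, 1.54% and 13.5% of the hexokinase pair's UMIs in endothelial-like cells, but 92.2% (91.2 to 93.2), 93.4%, 84.6% and 75.3% in fibroblast-like cells. In luminal progenitor-like cells the share was 85.8%, 84.0%, 68.9% and 75.6%. Pfkp gave 89.2%, 90.7%, 89.8% and 90.1% of the phosphofructokinase pair in dendritic-like cells, and 23.2%, 27.1%, 19.7% and 25% in luminal progenitor-like cells. In dendritic-like cells Pfkp was at 168, 242, 203 and 188 CPM, the highest of any class in each library.

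Among the genes of control and exit, Pfkfb3 and Pfkfb4 make and remove the activator of phosphofructokinase, and Pdk1 closes the entry of pyruvate into the mitochondrion. Pfkfb4 was highest in neutrophil-like cells in all 4 libraries, at 35.1, 60.8, 60.0 and 37.0 CPM. Pfkfb3 ran from 1.72 CPM in plasma-like to 141 CPM in dendritic-like cells, and Pdk1 from 3.19 CPM in fibroblast-like to 84.6 CPM in T-like cells.

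The HIF alpha subunits were divided by class too. Epas1, which encodes HIF-2 alpha, was at 579, 666, 1002 and 330 CPM in endothelial-like cells, and at 537, 427 and 329 CPM in smooth muscle and pericyte-like cells of the 3 libraries with enough cells. The intervals of these classes overlapped in the Trp53-intact and Trp53-deleted ADT libraries. Of the UMIs of both alpha subunits, Epas1 gave 73.1% (70.8 to 75.3), 74.5%, 85.7% and 67.4% in endothelial-like cells and 3.81% (2.48 to 5.57), 2.23%, 3.61% and 4.78% in neutrophil-like cells. Hif1a ran from 18.6 CPM in plasma-like to 420 CPM in monocyte-like cells, where it led in both Trp53-intact libraries at 285 and 420 CPM. The oxygen sensors Egln1 and Egln3 ran from 9.58 to 140 CPM and from 0 to 135 CPM.

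The hypoxia-induced genes did not share a class. Bnip3, a mitophagy receptor, was at 109, 145, 168 and 184 CPM in neutrophil-like cells, 1.11 to 2.14 times the next class, and its relative Bnip3l ran from 38.7 to 394 CPM over all classes. Kdm3a, a histone demethylase, was at 53.3, 81.3, 110 and 60.6 CPM in neutrophil-like cells, with a lowest value of 6.32 CPM in plasma-like cells. Ndrg1, which is also a myelination gene, reached 1243 and 754 CPM in Schwann-like cells of the Trp53-intact libraries, and 470, 458, 378 and 194 CPM in endothelial-like cells.

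Adm, which encodes the vasodilator peptide adrenomedullin, peaked in different classes. It was highest in basal-like cells of the Trp53-intact library (74.8 CPM), in smooth muscle and pericyte-like cells of the Trp53-intact ADT library (58.2 CPM), and in fibroblast-like cells of both Trp53-deleted libraries (60.9 and 47.6 CPM). Higd1a, a mitochondrial protein, ran from 41.9 CPM in Schwann-like to 201 CPM in luminal progenitor-like cells. P4ha1 and P4ha2, subunits of the collagen prolyl hydroxylase, ran from 6.58 to 173 and from 0 to 55.4 CPM, and Ankrd37 from 0 to 96.8 CPM.

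Clusters gave a finer picture than classes. The 14 enzymes summed to 5942, 5851, 6892 and 8196 CPM in cluster 9, which is neutrophil-like and led by Prok2 and Slfn4, and to 4860, 4821, 5318 and 5414 CPM in cluster 1, which is neutrophil-like and led by S100a8 and S100a9. Luminal progenitor-like cells were close to these at 5419, 4683, 6346 and 5709 CPM. Cluster 8 stood at 5889 CPM in the Trp53-deleted ADT library, which held nearly all of it. The unnamed cluster 6, led by Ccl8 and Cd163, had 1564, 1874, 1495 and 1798 CPM, so clusters 9 and 6 lay farther apart than any 2 libraries did within either. The sum weights each enzyme by its own UMI level.

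**Figure D2:**
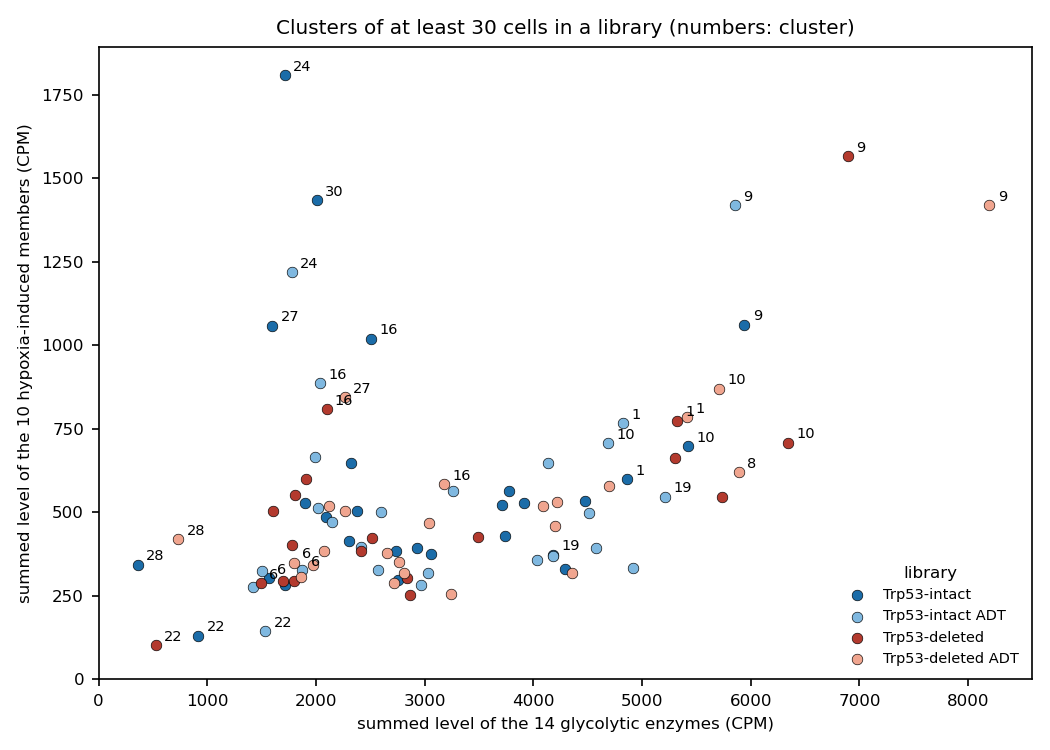
Summed level (CPM) of the 14 glycolytic enzymes on the x axis and of the 10 hypoxia-induced genes on the y axis, with 1 point per library for each cluster of at least 30 cells and numbers naming clusters. Cluster 9 has 5851 to 8196 CPM of the enzymes, and the Schwann-like cluster (24) reaches 1808 CPM of the hypoxia-induced genes, 565 CPM without Ndrg1.

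The hypoxia-induced genes summed to 1062, 1419, 1566 and 1419 CPM in cluster 9 and to 598, 767, 775 and 784 CPM in cluster 1. The Schwann-like cluster had 1808 and 1220 CPM in the Trp53-intact libraries, and 565 and 466 CPM once Ndrg1 was left out. Endothelial-like cluster 16 had 1020, 888, 808 and 583 CPM, of which Ndrg1 alone was 440, 417, 365 and 144 CPM.

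Within the neutrophil-like class, 7 of 29 members with at least 20 UMIs in 3 or more libraries were at least 1.5-fold higher in cluster 9 than in cluster 1 in at least 3 libraries, as were 9.34% of all genes. They were Tpi1, P4ha1, Hk2, Bnip3, Bnip3l, Pfkl and Pfkfb3. The clusters were drawn from the same cells, so this is a description. Tpi1 was at 500, 465, 575 and 608 CPM in cluster 9 and 199, 149, 211 and 227 CPM in cluster 1, which gives 2.52, 3.11, 2.73 and 2.68 times. P4ha1 was 2.45, 2.75, 3.58 and 2.47 times higher and Hk2 2.07, 2.48, 2.18 and 2.67 times higher in cluster 9. The exporter and a transporter went the other way. Slc16a3 was at 369, 354, 385 and 406 CPM in cluster 9 against 1067, 1022, 1032 and 627 CPM in cluster 1, and Slc2a3 at 34.3, 54.0, 82.7 and 111 CPM against 236, 214, 224 and 160 CPM. Cluster 9 held 195, 548, 308 and 113 cells and cluster 1 held 575, 879, 405 and 359, so the mix of the class changed with the library.

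**Figure D3:**
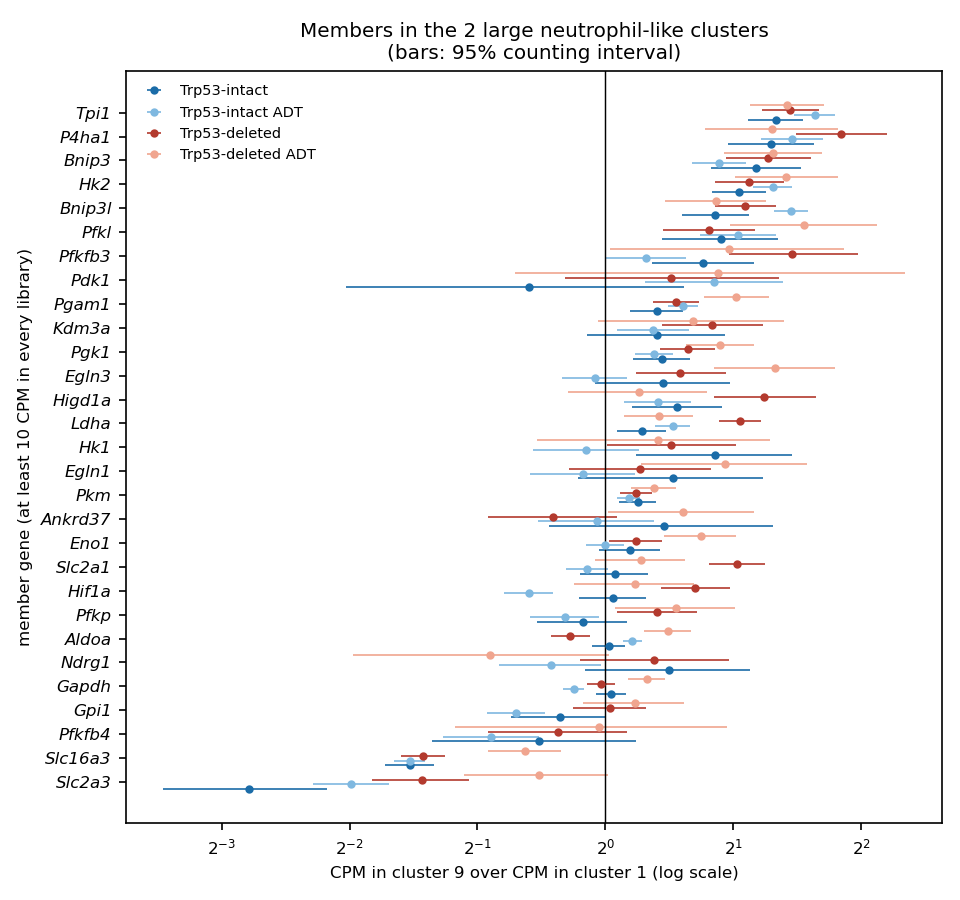
Ratio of CPM in cluster 9 to CPM in cluster 1 (log axis) for members at 10 CPM or more in every library, with 1 point per library and 95% counting intervals. Tpi1, P4ha1 and Hk2 lie to the right of 1 in all 4 libraries, and Slc16a3 and Slc2a3 to the left, the interval of Slc2a3 reaching 1 in the Trp53-deleted ADT library.

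Groups were compared in 4 ways: by ADT within each genotype, and by genotype without and with ADT. They share libraries, so their values are given side by side. A gene was counted as higher or lower when its ratio was at least 1.5-fold on the log2(CPM + 5) scale, with at least 20 UMIs over both libraries. Each count stands beside the percentage of all genes measured in that class that passed the same rule. Ratios are of CPM, and their 95% intervals are exact and cover counting error only.

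Luminal progenitor-like cells (379, 234, 240 and 114 cells) are the epithelial class that all 4 libraries held with its markers, such as Epcam at 1514, 1551, 1847 and 1857 CPM. With ADT in Trp53-intact mice, 2 of 10 hypoxia-induced genes were higher and none lower, and of 19 measured glycolytic genes 1 was higher and 1 lower, where 6.01% of all genes were higher and 5.05% lower. Ndrg1 was at 101 CPM against 46.1 CPM, a ratio of 2.20 (2.01 to 2.41), and Ankrd37 at 25 against 10.8 CPM, a ratio of 2.31 (1.91 to 2.80). Aldoc was 1.74 times higher (1.52 to 1.99), at 40.9 against 23.6 CPM, and Pgk1 was at 0.654 times (0.628 to 0.681), at 311 against 475 CPM.

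With ADT in Trp53-deleted mice, 4 of 10 hypoxia-induced genes were higher and none lower, and 2 of 19 glycolytic genes were higher, where 6.13% of all genes were higher and 7.17% lower. Adm was at 37.3 against 8.07 CPM, a ratio of 4.62 (3.54 to 6.06). Ankrd37 was at 50.8 against 13.6 CPM (3.72, 3.0 to 4.62), Ndrg1 at 127 against 35.1 CPM (3.62, 3.17 to 4.14) and P4ha1 at 38.0 against 17.9 CPM (2.12, 1.70 to 2.63). Ndrg1 and Ankrd37 were thus higher with ADT in both genotypes, whereas Adm was at 9.61 and 9.87 CPM in the Trp53-intact libraries. The glycolytic genes that were higher were Pfkfb3, at 27.9 against 10.5 CPM (2.66, 2.03 to 3.48), and Slc2a1, at 105 against 62.9 CPM (1.67, 1.47 to 1.89). Hif1a itself was at 97.4 against 62.6 CPM (1.56, 1.37 to 1.77). The median log2 ratio was 0.12 over the hypoxia-induced genes and -0.07 over the glycolytic genes, against -0.07 over all genes.

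**Figure D4:**
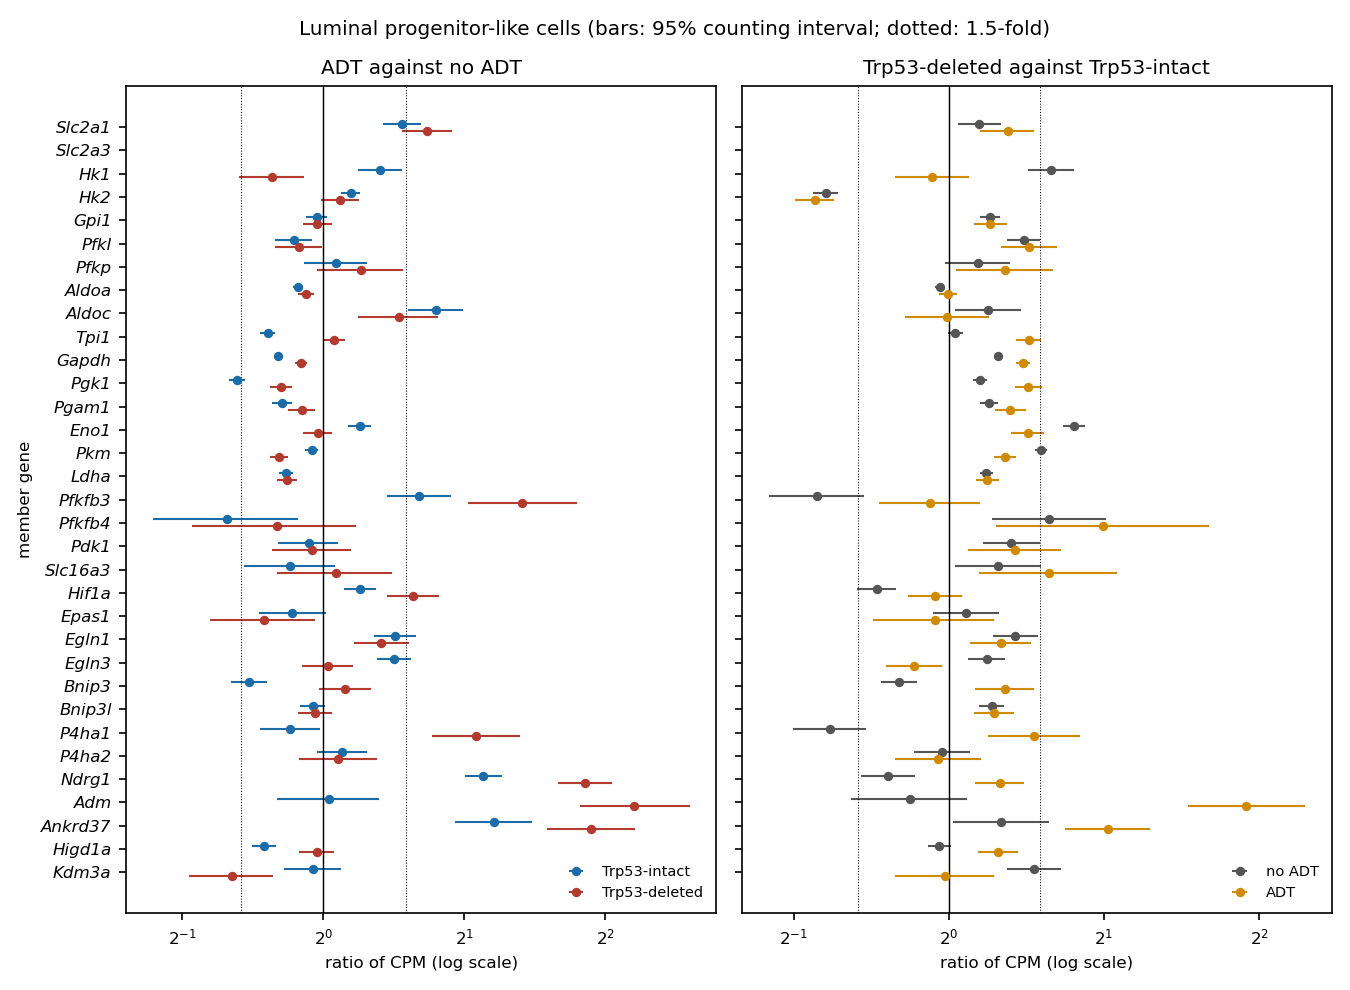
Ratio of CPM of each measured member in luminal progenitor-like cells (log axis) with 95% counting intervals, for ADT against no ADT in each genotype at the left and for the genotypes at the right. Dotted lines mark 1.5-fold without the 5 CPM of the counting rule; Ndrg1 and Ankrd37 lie beyond them with ADT in both genotypes, and Hk2 in both comparisons of genotype.

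The promoters of Ankrd37 and P4ha1 are shown as those of genes that were higher with ADT in Trp53-deleted mice. Ankrd37 lies on chr8:45996902-46005707, minus strand, and its window is chr8:45999851-46000100, with matches starting 241 and 6 bases before the start. This window too lies inside the annotated gene, before a RefSeq start that is not the annotated end of the gene. P4ha1 lies on chr10:59323296-59373304, plus strand; its window is chr10:59323046-59323295, with 1 match 16 bases before the start. Capitals mark ACGTG or CACGT.
Ankrd37: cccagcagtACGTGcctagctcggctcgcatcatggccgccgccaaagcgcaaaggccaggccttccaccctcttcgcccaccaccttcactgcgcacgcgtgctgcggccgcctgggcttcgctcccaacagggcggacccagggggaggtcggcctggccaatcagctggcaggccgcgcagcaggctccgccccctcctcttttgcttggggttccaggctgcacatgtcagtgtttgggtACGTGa
P4ha1: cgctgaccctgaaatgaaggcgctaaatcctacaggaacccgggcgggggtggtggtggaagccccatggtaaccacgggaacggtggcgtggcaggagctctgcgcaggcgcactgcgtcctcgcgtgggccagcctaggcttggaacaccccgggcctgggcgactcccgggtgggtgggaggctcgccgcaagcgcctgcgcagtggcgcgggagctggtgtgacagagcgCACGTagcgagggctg

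Other values moved with ADT in these cells. The 16 dissociation-stress genes summed to 10083, 18759, 8820 and 15287 CPM, and 10 and 11 of the 16 were higher with ADT in the Trp53-intact and Trp53-deleted mice. Fibroblast markers summed to 177, 382, 189 and 433 CPM and neutrophil markers to 23.8, 84.9, 23.4 and 11.7 CPM, against 55132, 52475, 32068 and 40725 CPM in neutrophil-like cells themselves. The genes that lead cluster 8 summed to 64.1 CPM in the Trp53-deleted ADT library, and cluster 8 itself held Adm at 4.01, Ankrd37 at 4.09, Ndrg1 at 62.2, Pfkfb3 at 6.05, Slc2a1 at 27.9, P4ha1 at 119.9 and Hif1a at 103 CPM. For P4ha1 and Hif1a that is above the luminal progenitor-like level, and for the other 5 genes below it. The part of dissociation stress and of free RNA in these differences was not tested.

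Of 29 further hypoxia genes, 8 of 27 measured were higher and 1 lower with ADT in Trp53-deleted mice, while in Trp53-intact mice 2 of 26 were higher and 4 lower. Car9, which encodes a carbonic anhydrase, was at 8.29, 19.9, 7.81 and 53.1 CPM. Hilpda, a lipid droplet protein, was at 49.4, 19.6, 18.7 and 62.0 CPM, and Hmox1, haem oxygenase, at 73.7, 22.3, 22.7 and 60.2 CPM, so both were lower with ADT in the Trp53-intact libraries and higher in the Trp53-deleted ones. Of 25 glycolysis isoforms and neighbours, 16 were measured; in Trp53-intact mice 1 was higher with ADT and 3 were lower, and in Trp53-deleted mice 3 were higher and 1 was lower. Slc16a1, another lactate transporter, was at 1.26, 9.30, 2.40 and 7.82 CPM. Ldhb, the other lactate dehydrogenase, was at 50.3 CPM in the Trp53-deleted ADT library and 16.4 CPM without ADT, and Fbp2, a gluconeogenic enzyme, at 41.1 and 12.8 CPM in the Trp53-intact libraries.

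Between genotypes without ADT, 3 of the 19 glycolytic genes were higher in Trp53-deleted mice and 2 lower, and 1 hypoxia-induced gene was lower, where 3.29% of all genes were higher and 2.49% lower. Eno1 was at 288 against 164 CPM (1.75, 1.67 to 1.84), Hk1 at 66.3 against 42.0 CPM (1.58, 1.43 to 1.75) and Pkm at 821 against 544 CPM (1.51, 1.47 to 1.55). Hk2 was lower at 147 against 254 CPM (0.578, 0.546 to 0.611), so the hexokinases moved in opposite directions. Pfkfb3 was at 10.5 against 18.9 CPM (0.554, 0.447 to 0.683) and P4ha1 at 17.9 against 30.5 CPM (0.587, 0.499 to 0.690). The median log2 ratio over the glycolytic genes was 0.24, against 0.11 over all genes. After centring on that median, 1 glycolytic gene was higher and 2 were lower. With ADT, Hk2 was the 1 glycolytic gene past the rule, at 160 against 291 CPM (0.549, 0.503 to 0.599), and the hypoxia-induced genes Adm (3.77, 2.91 to 4.91) and Ankrd37 (2.03, 1.68 to 2.45) were higher, where 3.97% of all genes were higher and 3.24% lower.

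Neutrophil-like cells (785, 1448, 714 and 472 cells) had the granule gene S100a8 at 21319, 21075, 11323 and 14165 CPM, so their defining marker was present in every library. With ADT in Trp53-intact mice, 1 of 20 glycolytic and 2 of 8 measured hypoxia-induced genes were higher and none lower, where 15.3% of all genes were higher and 6.19% lower. Bnip3l was at 394 against 202 CPM (1.95, 1.77 to 2.15), Egln3 at 105 against 55.6 CPM (1.88, 1.56 to 2.28) and Pfkfb4 at 60.8 against 35.1 CPM (1.73, 1.37 to 2.21). With ADT in Trp53-deleted mice, 5 of 19 glycolytic and 3 hypoxia-induced genes were lower and none higher, where 15.4% of all genes were higher and 13.9% lower. Pfkfb3 was at 37.0 against 78.9 CPM (0.469, 0.331 to 0.652), Kdm3a at 60.6 against 110 CPM (0.549, 0.418 to 0.714), P4ha1 at 102 against 173 CPM (0.590, 0.479 to 0.723) and Bnip3l at 185 against 306 CPM (0.605, 0.519 to 0.704). Pfkfb4, Hk1 and Pfkl were at 0.616, 0.631 and 0.650 times. The fifth glycolytic gene, Pdk1, had an interval that included 1.

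Between genotypes without ADT, 6 of the glycolytic genes and 4 hypoxia-induced genes were higher in neutrophil-like cells of Trp53-deleted mice and none lower, where 20.4% of all genes were higher and 6.24% lower. Ankrd37 was at 69.7 against 21.2 CPM (3.28, 2.39 to 4.56), Egln3 at 135 against 55.6 CPM (2.43, 1.98 to 2.99), Kdm3a at 110 against 53.3 CPM (2.07, 1.67 to 2.58) and Pfkl at 131 against 68.0 CPM (1.92, 1.59 to 2.34). Egln1, a sensor outside both counted groups, was at 55.7 against 30.1 CPM (1.85, 1.37 to 2.50). Ldha was at 637 against 420 CPM (1.51, 1.40 to 1.64), and Slc2a1, Pfkfb4, Hk1, Pdk1 and Bnip3 were 1.57, 1.71, 1.73, 1.75 and 1.54 times higher. With this background the glycolytic count lay not far above that of all genes, and the hypoxia-induced count farther. The median log2 ratio was 0.45 over the glycolytic and 0.59 over the hypoxia-induced genes, against 0.22 over all genes. After centring on the median of all genes, 1 glycolytic gene was higher and 1 lower, and 3 hypoxia-induced genes were higher.

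The mix of the class was checked by cluster for the genotypes without ADT. In cluster 1, 7 of 30 members were higher and 1 lower, where 32.5% of all genes were higher and 6.72% lower. In cluster 9, 11 of 29 were higher and 1 lower, where 19.5% of all genes were higher and 11.6% lower. The share of members that were higher in cluster 1 was thus below that of all genes. For ADT in Trp53-deleted mice, where cluster 9 held 308 of 714 cells without ADT and 113 of 472 with it, none of 30 members was higher in cluster 1 and 4 were lower, against 11.7% and 17.0% of all genes. In cluster 9, 3 of 29 were higher and 8 lower, against 23.0% and 21.6% of all genes. The shares of members that were lower were thus close to those of all genes in cluster 1 and above them in cluster 9. P4ha1 was at 75.6 against 79.6 CPM in cluster 1 (0.95, 0.687 to 1.31) and at 186 against 285 CPM in cluster 9 (0.654, 0.483 to 0.873). Pfkl was at 170.1 against 170.6 CPM in cluster 9, with a ratio of 0.595 in cluster 1, and Bnip3l was at 0.767 times in cluster 1 and 0.654 in cluster 9. The class values of P4ha1, Pfkl and Bnip3l therefore differ from those within clusters.

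With ADT, 3 glycolytic genes were lower in neutrophil-like cells of Trp53-deleted than of Trp53-intact mice, and 1 hypoxia-induced gene was higher and 1 lower, where 15.0% of all genes were higher and 10.1% lower. Hk2 was at 168 against 278 CPM (0.605, 0.522 to 0.699), Pfkfb3 at 37.0 against 66.2 CPM (0.559, 0.403 to 0.759) and Pfkfb4 at 37.0 against 60.8 CPM (0.608, 0.438 to 0.828). Ankrd37 was at 96.8 against 33.7 CPM (2.87, 2.26 to 3.64) and Bnip3l at 185 against 394 CPM (0.470, 0.408 to 0.538). The sensor Egln1 was at 70.8 against 42.3 CPM (1.68, 1.30 to 2.15). Ankrd37 was therefore the hypoxia-induced gene that was higher in Trp53-deleted mice in this class both without and with ADT. The 16 stress genes summed to 20344, 31139, 35722 and 28507 CPM in neutrophil-like cells, and their part in these differences was not tested.

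Among the other hypoxia genes in neutrophil-like cells, Hilpda was at 1165, 541, 993 and 357 CPM, so it was lower with ADT in both genotypes. Vegfa, the angiogenic factor, was at 779 CPM without ADT and 316 CPM with ADT in Trp53-deleted mice, and Bhlhe40, a transcriptional repressor, at 893 and 385 CPM. Hk3, the hexokinase isoform outside the 33 genes, was at 137 CPM without ADT and 56.6 CPM with ADT in Trp53-deleted mice, and Hmox1 at 424 CPM in the Trp53-deleted and 151 CPM in the Trp53-intact library. Loxl2 at 14.9 CPM and Lox at 37.8 CPM were higher in the Trp53-deleted ADT library than in the Trp53-intact ADT one (1.53 and 5.74 CPM), where the cluster 8 genes also stood highest.

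Hk2 was lower in Trp53-deleted mice in most classes, not in the epithelium alone. Without ADT its ratio was below 1 in 10 of 10 measured classes and past the 1.5-fold rule in 8 of them, and with ADT it was below 1 in 8 of 10 and past the rule in 7. Of all genes measured in at least 10 classes, 1.30% were lower in 8 or more without ADT, and 1.12% in 7 or more with ADT. Hk2 was the 1 member among them in each comparison, of 24 members so measured without ADT and 19 with it. The cut-offs of 8 and 7 classes are the counts of Hk2 itself, so it was bound to be among them. In fibroblast-like cells it was at 299.6, 331, 163 and 81.5 CPM, giving 0.545 (0.514 to 0.577) without ADT and 0.247 (0.225 to 0.270) with it. In basal-like cells it was at 359, 323 and 84.2 CPM, a ratio of 0.234 (0.194 to 0.281) without ADT. T-like cells had 88.0, 58, 25.8 and 41.2 CPM, macrophage-like cells 207, 147, 79.9 and 68.8 CPM, and dendritic-like cells 155, 159, 65.2 and 77.6 CPM. In each of these 3 classes both Trp53-deleted libraries lay below both Trp53-intact ones.

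**Figure D5:**
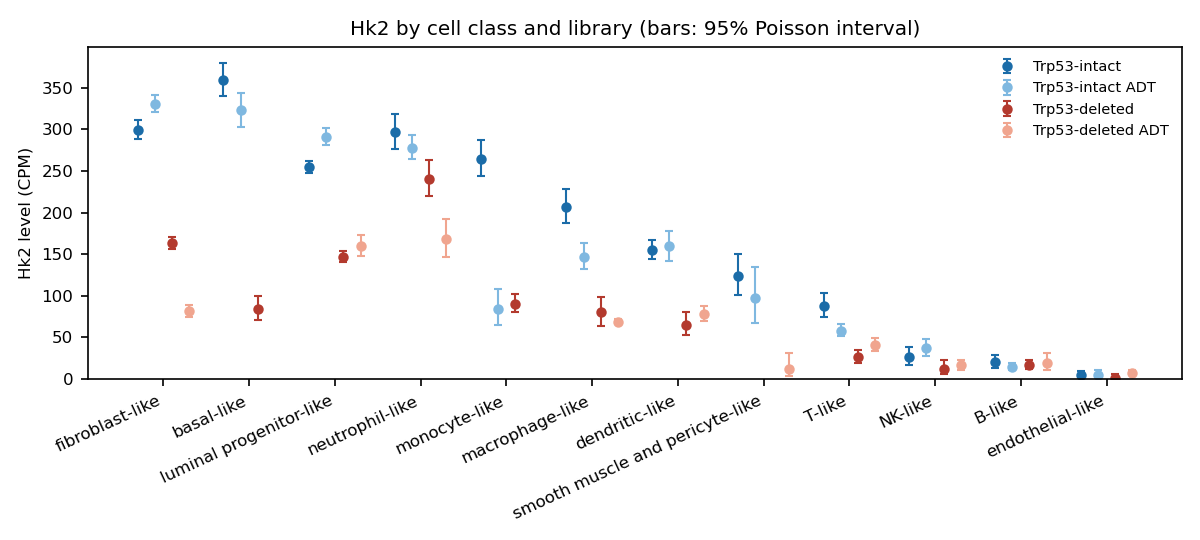
Hk2 level (CPM) by cell class in the 4 libraries, with exact 95% Poisson intervals. In luminal progenitor-like, fibroblast-like, neutrophil-like, T-like, macrophage-like and dendritic-like cells both Trp53-deleted libraries lie below both Trp53-intact ones, while B-like cells stay between 14.7 and 19.7 CPM.

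The lower Hk2 was also seen inside single clusters. In fibroblast-like cluster 15 Hk2 was at 138, 141, 38.3 and 34.2 CPM, in T-like cluster 5 at 91.6, 134, 34.9 and 55.8 CPM, and in the unnamed cluster 6 at 146, 99.3, 73.9 and 52.3 CPM. Neutrophil-like clusters 1 and 9 gave 233, 177, 157 and 120 CPM and 483, 438, 341 and 321 CPM. With ADT, Hk2 was not lower in B-like cells, at 19.7, 14.7, 16.2 and 18.5 CPM, or in endothelial-like cells, at 5.05, 4.79, 1.09 and 7.39 CPM, and both intervals included 1. The label of the Trp53 deletion is read here as limiting it to the prostate, and Trp53 in T-like cells was at 72.0, 65.7, 109 and 79.5 CPM, so the genotype and a difference between libraries cannot be told apart here.

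The Hk2 promoter is shown because of this shared direction. Hk2 lies on chr6:82725025-82774454, minus strand, and its window is chr6:82774455-82774704, with matches starting 226 and 52 bases before the start. Capitals mark ACGTG or CACGT.
Hk2: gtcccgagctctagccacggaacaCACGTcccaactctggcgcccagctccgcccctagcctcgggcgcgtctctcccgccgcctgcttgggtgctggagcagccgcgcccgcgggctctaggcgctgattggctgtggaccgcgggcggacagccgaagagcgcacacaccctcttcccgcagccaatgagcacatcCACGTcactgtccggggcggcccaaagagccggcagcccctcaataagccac

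Fibroblast-like cells (1045, 1189, 1501 and 755 cells) hardly differed with ADT in Trp53-intact mice: none of 33 members was higher and 1 was lower, P4ha2 at 20.4 against 36.9 CPM, where 7.15% of all genes were higher and 6.15% lower. In Trp53-deleted mice 8 of 32 were higher and 6 lower, where 8.47% of all genes were higher and 10.1% lower. Those higher were led by Slc16a3 (7.69 against 1.46 CPM), Ankrd37 (9.02 against 3.24), Pfkl (25 against 11.1), Pgk1 (102 against 53.8), Pkm (222 against 131) and Gapdh (690 against 411). Those lower were Epas1 (24.3 against 77.4), Pfkp (39.9 against 98.6), Pdk1 (3.25 against 7.93), Hk2, Kdm3a (18.8 against 32.0) and Ndrg1 (77.8 against 120).

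The clusters behind the fibroblast-like class changed with ADT. Cluster 3 held 695, 7, 845 and 5 cells and cluster 2 held 124, 958, 28 and 469, so ADT ratios in this class compare different clusters. Cluster 15 was present in all libraries, and there Epas1 was at 41.2, 24.3, 23.1 and 20.5 CPM, with overlapping intervals in the last 3, while Slc16a3 was at 10.8 against 2.26 CPM with ADT in Trp53-deleted mice. Cluster 8 had Gapdh at 1678, Pkm at 956 and Pgk1 at 470 CPM, and its leading genes summed to 707 CPM in the fibroblast-like class with ADT in Trp53-deleted mice, against 193 to 456 CPM in the other libraries.

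Between genotypes, fibroblast-like cells without ADT had 1 member higher and 3 lower of 33, Hk2 included, where 10.1% of all genes were higher and 5.69% lower. Kdm3a was at 32.0 against 17.1 CPM, P4ha1 at 73.3 against 123 CPM and Higd1a at 45.3 against 74.4 CPM. In cluster 3, which both libraries without ADT filled, Kdm3a was at 1.93, P4ha1 at 0.629, Higd1a at 0.551 and Hk2 at 0.411 times. Of the 16 stress genes, 5 were lower and none higher in the class in this comparison, among them Hspa1a at 0.191 and Hsph1 at 0.185 times. Their sum was 16466, 27489, 13278 and 14696 CPM over the 4 libraries, and their part was not tested. With ADT 5 of 32 were higher and 4 lower, again with Hk2, where 8.29% of all genes were higher and 6.80% lower. Slc2a1 was at 9.62 against 24.3 CPM (0.395, 0.297 to 0.518), Pfkp at 39.9 against 76.2 CPM and Hif1a at 67.9 against 104 CPM. Ankrd37 (9.02 against 3.83 CPM), Pfkl (25 against 13.6), Pkm (222 against 131), P4ha2 (33.1 against 20.4) and Gapdh (690 against 432) were higher. In cluster 2, which both ADT libraries filled, Slc2a1, Hk2 and Pfkp were at 0.35, 0.28 and 0.57 times.

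Endothelial-like cells (189, 147, 122 and 400 cells) held Epas1 at 579, 666, 1002 and 330 CPM, lowest in the Trp53-deleted ADT library. With ADT in Trp53-deleted mice 9 of 31 members were higher and 10 lower, where 14.4% of all genes were higher and 22.6% lower. Epas1 was at 330 against 1002 CPM (0.329, 0.303 to 0.357), Slc2a3 at 4.65 against 23 CPM (0.202, 0.106 to 0.387), Egln3 at 4.65 against 20.8 CPM (0.224, 0.115 to 0.437) and Pfkfb3 at 27.2 against 71.1 CPM (0.383, 0.282 to 0.525). Bnip3, Egln1 and Ndrg1 were at 0.386, 0.496 and 0.512 times. Adm was higher at 28.3 against 8.75 CPM (3.23, 1.59 to 7.65), as were Pgk1 (1.96), Ankrd37 (1.93), Gapdh (1.83) and Pkm (1.75). Hk2 rested on 1 UMI in the library without ADT, and its ratio of 6.76 had an interval of 1.14 to 274.

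The same library stood apart in the comparison of genotypes with ADT, where 6 of 31 members were higher and 8 lower against 16.1% and 11.6% of all genes. Egln3 (4.65 against 23.2 CPM), Bnip3 (6.76 against 32.0), Slc2a3 (4.65 against 19.98), Pfkfb3 (27.2 against 78.3), Ndrg1 (194 against 458) and Epas1 (330 against 666) were lower. Pkm (471 against 202), Eno1 (135 against 63.1), Pgam1 (172 against 95.1), Higd1a (84.9 against 47.9), Gapdh (1.60 times) and Tpi1 (140 against 91.1) were higher. Cluster 8 leading genes summed to 143, 64.7, 154 and 307 CPM in endothelial-like cells. In cluster 16, led by Flt1 and Plvap, Epas1 was at 685, 763, 1105 and 383 CPM and Ndrg1 at 440, 417, 365 and 144 CPM, so the lower values of that library were also seen inside the cluster.

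Without ADT, 2 of 30 members were higher in endothelial-like cells of Trp53-deleted mice and 5 lower, where 21.6% of all genes were higher and 7.43% lower. Epas1 was at 1002 against 579 CPM (1.73, 1.58 to 1.89) and Egln1 at 140 against 80.3 CPM. Adm was at 8.75 against 61.6 CPM (0.142, 0.060 to 0.289), Ankrd37 at 14.2 against 48.0 CPM, P4ha2 at 8.75 against 25.2 CPM, P4ha1 at 31.7 against 83.3 CPM and Pgk1 at 64.5 against 100.5 CPM. Thus 4 of the 10 hypoxia-induced genes were lower while the alpha subunit gene Epas1 was higher. The other alpha subunit gene, Hif1a, had a ratio below 1 in this class. The stress genes summed to 18421, 19431, 8790 and 10116 CPM in this class, lower in both Trp53-deleted libraries, and their part was not tested. With ADT in Trp53-intact mice none of 30 members was higher and 4 were lower, where 7.93% of all genes were higher and 7.71% lower: P4ha1 (46.3 against 83.3 CPM), Higd1a (47.9 against 79.3), Tpi1 (91.1 against 141) and Slc16a3 (2.40 against 9.59, from 3 UMIs, ratio 0.250 with an interval of 0.0474 to 0.849).

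T-like cells (374, 716, 440 and 638 cells) had Pdk1 at 17.7, 73.5, 84.6 and 43.4 CPM. The mix of the class differed between the libraries too. Cluster 13, led by the naive T cell genes Lef1 and Tcf7, held 16, 406, 165 and 179 cells, and Pdk1 there was at 105, 156 and 98.2 CPM in the 3 libraries with enough cells. In cluster 5, which held 358, 310, 275 and 459 cells, Pdk1 was at 16.7, 26.5, 33.9 and 21.2 CPM. With ADT in Trp53-intact mice 1 of 31 members, Pdk1, was higher and 9 were lower, where 6.74% of all genes were higher and 11.1% lower. The lower ones were led by Adm (1.85 against 10.3 CPM), Bnip3 (3.47 against 14.3), Aldoc (2.77 against 6.86), Tpi1 (39.1 against 93.1), Slc16a3 (8.33 against 17.1) and Aldoa (284 against 476).

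In T-like cells of Trp53-deleted mice 4 of 31 members were higher with ADT and 5 lower, where 9.47% of all genes were higher and 17.7% lower. Slc2a3 was at 25.4 against 75.0 CPM (0.339, 0.249 to 0.458) and Pgam1 at 102 against 53.4 CPM (1.92, 1.5 to 2.46). Kdm3a, Pfkl, Pfkfb3 and Pdk1 were at 0.604, 0.606, 0.580 and 0.513 times, and Hk2 was at 1.60 times. P4ha2 was at 8.46 against 1.80 CPM, from 3 UMIs without ADT (4.70, 1.42 to 24.5). Between genotypes without ADT, 4 of 30 were higher and 4 lower, where 21.6% of all genes were higher and 9.21% lower. Slc2a3 was at 75.0 against 30.9 CPM (2.43, 1.75 to 3.41), Pfkl at 51.6 against 30.9 CPM and Bnip3l at 196 against 129 CPM, while Adm (1.20 against 10.3), Hk2, Epas1 (15.6 against 37.7) and Aldoa (262 against 476) were lower. The level of Slc2a3 in T-like cells of the Trp53-deleted library thus stood above the other 3 libraries, which lay between 25.4 and 30.9 CPM.

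With ADT, 7 of 32 members were higher and 2 lower in T-like cells of Trp53-deleted mice, where 11.0% of all genes were higher and 4.93% lower. They were P4ha2 (8.46 against 1.85 CPM), Ankrd37 (13.6 against 5.55), Bnip3 (8.09 against 3.47), Tpi1 (79.8 against 39.1), P4ha1 (41.2 against 23.1), Pgam1 (102 against 60.6) and Pkm (333 against 196), and the lower ones were Pdk1 and Epas1 (22.1 against 35.6). Cluster 8 had P4ha2 at 89.98, Tpi1 at 413, Pgam1 at 633 and Pkm at 956 CPM, and Ankrd37 at 4.09 CPM.

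Macrophage-like cells (87, 124, 66 and 2302 cells) came from different clusters: in the Trp53-intact library 64 of 87 were in cluster 21, led by the proliferation genes Mki67 and Top2a, and in the Trp53-deleted ADT library 2116 of 2302 were in cluster 0. With ADT in Trp53-deleted mice none of 33 members was higher and 14 were lower, where 7.45% of all genes were higher and 15.6% lower. With ADT between genotypes the count was again 14 lower and none higher, where 5.18% of all genes were higher and 7.25% lower. Both comparisons share the Trp53-deleted ADT library. Tpi1 was at 306, 263, 361 and 154 CPM, Aldoa at 494, 546, 398 and 206 CPM, Pfkp at 100.1, 93.6, 121 and 36.6 CPM, and Bnip3 at 43.6, 39.6, 34.4 and 14 CPM. That library was the lowest for each of these 4 genes.

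Cluster 0 gave a like order where it had enough cells. In its Trp53-intact ADT (93 cells) and Trp53-deleted ADT cells, Aldoa was at 527 and 213 CPM (0.405, 0.375 to 0.437), Tpi1 at 265 and 148 CPM (0.561, 0.505 to 0.624) and Bnip3 at 49.0 and 14.3 CPM (0.292, 0.226 to 0.381). Aldoc, at 7.78, 4.53, 20.5 and 1.23 CPM in the class, and Egln3, at 6.75, 5.36, 0.930 and 1.77 CPM, were the other members with wide ratios, both at low counts. With ADT in Trp53-intact mice 2 of 30 members were higher, Pfkfb4 (23.1 against 11.4 CPM) and Pdk1 (16.5 against 8.30), and none lower, where 9.07% of all genes were higher and 7.94% lower. Without ADT between genotypes 3 of 29 were higher, among them Pfkfb4 (31.6 against 11.4) and Aldoc, and 3 lower, among them Hk2, where 15.6% of all genes were higher and 6.75% lower.

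The smaller classes are given by their values. In basal-like cells, compared in the 3 libraries with enough cells, Adm was at 74.8, 19.8 and 13.2 CPM, Ankrd37 at 2.05, 11.8 and 5.26 CPM, and Egln3 at 53.9, 34.2 and 18.4 CPM. Slc2a1 was at 111, 69.4 and 61.8 CPM there, Epas1 at 57.7, 49.3 and 118 CPM and Kdm3a at 26.7, 24.6 and 53.9 CPM. Adm, Egln3 and Slc2a1 were thus highest in the Trp53-intact library without ADT, and Epas1 and Kdm3a in the Trp53-deleted one.

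Dendritic-like cells had Slc2a3 at 11.4, 5.07, 19.99 and 4.28 CPM and Pfkfb3 at 47.6, 69.5, 141 and 46.8 CPM, both highest in the Trp53-deleted library without ADT. Monocyte-like cells, compared in 3 libraries, had Ndrg1 at 78.1, 27.7 and 25.1 CPM, Hk2 at 265, 84.3 and 90.5 CPM, Slc2a1 at 74.0, 56.6 and 22.6 CPM, and Pkm at 308, 739 and 322 CPM. Ndrg1 and Hk2 were highest in the Trp53-intact library without ADT. NK-like cells had Pfkp at 82.1, 77.3, 188 and 84.8 CPM, Slc2a1 at 17.4, 31.9, 43.8 and 28.1 CPM, and Bnip3 at 15.4, 14.2, 6.43 and 5.33 CPM.

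B-like cells had Adm at 48.3, 2.55, 16.7 and 8.64 CPM and P4ha1 at 25.6, 12.7, 13.4 and 34.5 CPM, with Pkm at 145, 119, 168 and 278 CPM. Adm in basal-like, T-like and B-like cells, 3 classes chosen after their values were seen, was thus highest in the Trp53-intact library without ADT, and there at least 2-fold above each of the other libraries. In smooth muscle and pericyte-like cells of the 3 libraries with enough cells, Adm was at 6.02, 58.2 and 15.1 CPM, Pfkfb3 at 44.6, 11.1 and 12.1 CPM, Hk2 at 124, 97.1 and 12.1 CPM, P4ha1 at 72.3, 41.6 and 130 CPM, and Ndrg1 at 49.4, 77.6 and 24.1 CPM. The Adm order in this class was therefore unlike that in basal-like, T-like and B-like cells.

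Plasma-like and Schwann-like cells could be compared with ADT in Trp53-intact mice alone. In plasma-like cells (167 and 66 cells) Slc16a3 was at 0.575 and 17.3 CPM, Ndrg1 at 3.06 and 17.3 CPM, Pdk1 at 4.21 and 12.3 CPM, and Eno1 at 25.1 and 57.6 CPM. Adm went from 13.6 CPM to no UMI. In Schwann-like cells (132 and 53 cells) Hk2 was at 14.7 and 130 CPM, Aldoc at 22.9 and 69.9 CPM, Eno1 at 65.5 and 23.3 CPM and Higd1a at 108 and 41.9 CPM. Both classes were small with ADT, so few cells stand behind these values.

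Across classes, other members also had a repeated direction, and some are given here. Without ADT, the ratios of Trp53-deleted to Trp53-intact mice for Aldoa and Hif1a were below 1 in 11 of 11 measured classes. They were past the rule in 3 and 2 of these. Gpi1 was above 1 in 11 of 11, with no class past the rule, and Pdk1 was higher past the rule in 5 of 11. These genes were picked by their counts. The share of all genes with the same counts was not counted, so they have no background beside them. With ADT in Trp53-deleted mice Kdm3a and Pdk1 were each lower past the 1.5-fold rule in 5 of 9 measured classes. These were 2 of the 24 members measured in at least 9 classes, and 4.92% of all genes so measured were lower in 5 or more. Kdm3a and Pdk1 were chosen after their values were seen, and the cut-off of 5 classes is their own count.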

How the data were processed

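The deposited matrix holds raw UMI counts per gene and cell barcode, not normalised. The authors produced these counts with Cell Ranger on mm10, per the submitters' processing notes. These notes name version 2.1.1, whereas the matrix header gives 3.1.0, and the difference could not be settled. Barcode suffixes gave the library of each cell through a deposited table. The rule that selected the barcodes, and the treatment of reads matching several genes are not given in the sources used here.

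Kept cells had 1000 UMIs or more, 200 genes or more and no more than 20% mitochondrial UMIs. Between 8.39% and 25.7% of a library's barcodes exceeded the mitochondrial limit. The automatic threshold of Scrublet marked 0, 0, 1 and 1 barcodes. Instead, the barcodes with the top doublet scores were removed, as a share that grew by 0.008 per 1000 barcodes. After scaling to 10000 per cell and taking logs, 2000 variable genes without the members were reduced to 40 principal components. Leiden clustering used 20 neighbours per cell and resolution 1 (scanpy 1.11.5, leidenalg 0.10.2). Each cluster took the name of its top-scoring marker list (score of 1 or more, or 3 or more of its markers among the leading genes, with 3 or more markers detected). A cluster stayed unnamed when markers of another class led it, or when it was shallow with none of its own markers leading. It also stayed unnamed when genes of cell types outside the marker lists led it. This last rule and the minimum of 1000 UMIs were set after the clusters were seen.

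UMIs were summed per class (at least 50 cells) or cluster (at least 30) and library, and divided by the total to give CPM. For log2 ratios 5 CPM were added. All intervals are exact 95% intervals (Poisson, conditional binomial, Clopper-Pearson) and cover counting error only. The ratio script was tested on simulated data. Genes were named by rule: at least 1.5-fold with an interval that leaves out 1, at most 6 each way per comparison and class, and, in the smaller classes, a selection of these. Members and lists were chosen with earlier results of these data known. Gene positions are from GENCODE M21, and promoters from RefSeq. Some genes measured are not reported here.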

Additional observations from a re-analysis of the deposited data

Results flagged for a closer look

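For 5 pairs of a gene and a class the ADT ratio was at least 1.5-fold in opposite directions in the 2 genotypes. P4ha1 appears in 2 of these pairs, and each ratio had a counting interval that left out 1. With 1 library per group the difference was not tested. The share of all genes with such opposite ratios was not counted, so the pairs have no background beside them. Values are the log2 ratio with ADT in Trp53-intact minus that in Trp53-deleted mice. In neutrophil-like cells Bnip3l differed by 1.65 (0.94 and -0.71) and Pfkfb4 by 1.35 (0.71 and -0.63). In that class cluster 9 held 195, 548, 308 and 113 cells and cluster 1 held 575, 879, 405 and 359. Bnip3l was at 302, 642, 430 and 281 CPM in cluster 9 and at 166, 234, 201 and 154 CPM in cluster 1. The part of this mix was not tested. In T-like cells Pdk1 differed by 2.68 (1.79 and -0.89), a class in which the Lef1 and Tcf7 cluster held 16, 406, 165 and 179 cells. P4ha1 differed by -1.49 in endothelial-like cells (-0.78 and 0.71) and by -1.89 in B-like cells (-0.79 and 1.10). In the Trp53-deleted ADT library P4ha1 was higher in the unnamed cluster led by Crabp1 and Ptn than in either class. The part of free RNA from that cluster was not tested. All of these pairs rest on single libraries of different ages.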

How the results depend on the processing

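No paired analysis was possible because each group has 1 library, and for the same reason no replicate could be left out. Among the alternative values of 18 counts, 154 were within 1.5 times the count reported and 22 were not. The cause was not tested for any of these. In luminal progenitor-like cells, glycolytic genes past the rule between genotypes without ADT numbered 3 rather than 5 after centring on the median of all genes, with at most 10% mitochondrial UMIs, with the members kept among the variable genes, at Leiden resolution 2 and with a mean over cells; with ADT they numbered 3 with a pseudocount of 1 CPM, 5 with at most 10% mitochondrial UMIs and 2 with the lowest class level taken off, rather than 1. With ADT against no ADT they numbered 1 rather than 2, in Trp53-intact mice with a mean over cells, and in Trp53-deleted mice with the members kept or with at least 500 UMIs per cell. The hypoxia-induced gene that was lower in Trp53-deleted mice without ADT was lost (0) with at most 10% mitochondrial UMIs or at least 500 UMIs. In neutrophil-like cells with ADT in Trp53-intact mice, glycolytic genes numbered 2 with a pseudocount of 1 CPM or 10% mitochondrial UMIs and 4 with the lowest level taken off, rather than 1, and hypoxia-induced genes 4 with a pseudocount of 1 CPM or doublets kept, rather than 2. In Trp53-deleted mice the glycolytic count was 2 with a mean over cells and 3 with at least 500 UMIs, rather than 5. Between genotypes it was 2 rather than 6 without ADT after centring, and 5 rather than 3 with ADT at 10% mitochondrial UMIs. The 4 hypoxia-induced genes higher with ADT in luminal progenitor-like cells of Trp53-deleted mice numbered 4 or 5 in the alternatives run. Neutrophil-like cells led for 10 to 13 genes, and 7 or 8 genes were higher in cluster 9. With doublets kept, the luminal progenitor-like cluster stayed unnamed and gave no value. The minimum of 500 UMIs and the pseudocount for clusters were chosen after seeing the data. Counting error alone leaves members with few UMIs, such as Aldoc, Adm and Egln3 in the smaller classes, with wide intervals, and no interval covers the spread between mice.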
